A study of Mus musculus with 22 samples.

Results

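The regions described here are 1047 stretches of the mouse genome where peaks of acetylated lysine 27 of histone H3 (H3K27ac) covered fewer bases after 24 h of GATA1 activation than before it. They were found by merging the peaks of 10 H3K27ac lists where they touched, which gave 24299 regions, and by keeping the 13217 regions with a peak in every list. For each of these, the covered length is the number of bases under a peak in 1 list. The members were chosen by these lengths at 0 h and 24 h: a narrowing region is one in which the longer of the 2 lengths at 24 h was below the shorter of the 2 lengths at 0 h and the mean at 0 h was at least 1.3 times the mean at 24 h. The rule kept 7.92% of the 13217 regions, and 838 of the 1047 held no transcription start site (TSS) of a protein-coding gene. The same rule turned around kept 1432 widening regions, which serve here only for comparison.

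The cells were G1E-ER4, also called G1ER, a mouse erythroid progenitor line that lacks endogenous Gata1 and carries an estrogen-responsive GATA1 fusion (GATA1-ER), so that β-estradiol switches GATA1 on. All groups shared this background and were grown with serum, stem cell factor (SCF) and erythropoietin. The 0 h group received no β-estradiol, and the other groups received it for 2, 6, 12 or 24 h. H3K27ac and H3K4me3 chromatin immunoprecipitation had 2 lists at each time, and CTCF had 1 list at 0 h and 1 at 24 h. The line is a single engineered clone held at the progenitor stage, and the study describes the 2 lists at a time as independent experiments, without saying how the cultures were kept apart.

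H3K27ac marks active enhancers and promoters, whereas H3K4me3 is concentrated at the start sites of active genes and CTCF binds insulators and loop anchors. In erythroid maturation GATA1 replaces GATA2 on shared WGATAR sites (W is A or T, R is A or G), activates globin, heme and red cell membrane genes and turns down progenitor genes such as Kit. The length of a called peak is a coarse readout: it is how far the signal stays high enough to be called. A lower signal can therefore also give a shorter peak, and spread and height were not separated here.

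The lists held 17247 to 18333 peaks for H3K27ac, 12925 to 14452 for H3K4me3, and 33193 and 41473 for CTCF. Read depth is unknown, so a peak that is missing may be absent, too weak to be called or left out for another reason. Fewer marked cells cannot be told apart from less mark per cell. At 0 h both H3K4me3 lists had a peak over the TSS of 8 of 10 erythroid progenitor markers (Tal1 and Gata2 had none) and over 3 of 22 markers of other cell types, namely Syp and the mast cell genes Cpa3 and Ms4a2. The study describes GATA2 as highly expressed before induction, so a missing peak need not mean an unmarked promoter. No list held a peak longer than 9200 bp, and the longest peaks were 8769 to 9200 bp in the histone lists. Whether longer peaks were left out, at Tal1 and Gata2 or elsewhere, was not tested. Regions with an H3K27ac peak of 6 kb or longer were 6.69% of the narrowing regions and 8.25% of all 13217.

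Reference sequence is shown for 4 regions, 3 of those without a TSS that had the largest ratios of 0 h to 24 h length and the one with the largest ratio among regions of the chosen gene lists, because the position of what was lost can be read against what was kept. Lost bases lay under a peak in both 0 h lists and neither 24 h list, and kept bases under a peak in all 4. For each region, 150 bases around the middle of the longest lost stretch and of the longest kept stretch are given 5′ to 3′ on the plus strand of GRCm38 (mm10), from the RefSeq assembly. Capitals mark GATA words, that is AGATAA or AGATAG with A or T as the first base, on either strand, and all other bases are in lower case. The first lay in an intron of Gsdme, the gene of the pore-forming protein gasdermin E.
Gsdme region, lost, chr6:50253964-50254113: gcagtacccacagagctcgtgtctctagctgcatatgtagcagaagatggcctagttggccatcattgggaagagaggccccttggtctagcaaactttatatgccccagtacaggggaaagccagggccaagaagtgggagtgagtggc
Gsdme region, kept, chr6:50254831-50254980: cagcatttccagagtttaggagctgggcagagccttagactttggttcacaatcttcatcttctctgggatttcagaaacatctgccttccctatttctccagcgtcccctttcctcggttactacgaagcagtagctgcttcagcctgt
The next was intergenic, with no protein-coding TSS within 50 kb.
Intergenic region on chromosome 2, lost, chr2:149305503-149305652: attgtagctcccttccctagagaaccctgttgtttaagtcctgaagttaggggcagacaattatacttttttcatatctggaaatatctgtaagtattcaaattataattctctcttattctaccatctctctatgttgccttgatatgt
Intergenic region on chromosome 2, kept, chr2:149306472-149306621: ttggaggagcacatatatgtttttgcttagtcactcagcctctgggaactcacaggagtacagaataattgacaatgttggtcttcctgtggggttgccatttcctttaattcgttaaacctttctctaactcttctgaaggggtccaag
Another was intergenic and 22979 bp from the TSS of Ripply2, a corepressor of somite formation.
Ripply2 region, lost, chr9:86989373-86989522: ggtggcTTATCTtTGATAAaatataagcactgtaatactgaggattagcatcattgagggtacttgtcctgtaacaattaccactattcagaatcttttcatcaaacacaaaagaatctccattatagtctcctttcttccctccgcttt
Ripply2 region, kept, chr9:86990692-86990841: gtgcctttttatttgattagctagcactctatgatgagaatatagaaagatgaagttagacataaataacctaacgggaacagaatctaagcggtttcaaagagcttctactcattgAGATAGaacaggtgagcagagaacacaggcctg
The last held the TSSs of Alad, an early enzyme of heme synthesis, of Pole3, a subunit of DNA polymerase epsilon, and of 4933430I17Rik.
Alad region, lost, chr4:62518327-62518476: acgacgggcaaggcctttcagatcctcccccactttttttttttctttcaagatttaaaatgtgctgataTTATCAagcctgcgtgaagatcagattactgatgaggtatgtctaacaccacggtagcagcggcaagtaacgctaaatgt
Alad region, kept, chr4:62524437-62524586: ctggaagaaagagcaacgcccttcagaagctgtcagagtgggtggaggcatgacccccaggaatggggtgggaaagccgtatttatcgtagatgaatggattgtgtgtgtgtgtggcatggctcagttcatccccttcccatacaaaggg
A GATA word was present in both the lost and the kept window near Ripply2 and in the lost window at Alad, and in none of the other windows shown. Among the narrowing regions without a TSS (here called distal) with a stretch long enough for such a window, 23.3% of the 687 lost windows and 31.6% of the 826 kept windows held a GATA word, against 22.6% of 1179 lost and 28.8% of 5393 kept windows over all distal regions. The windows over all distal regions include those of the narrowing regions. A match is a word in the reference and not a bound site.

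The covered lengths at 0 h and 24 h chose the regions and are given as a description. Before induction the median length of the 838 distal regions was 2556 ± 81.7 bp (SD, n = 2 lists), and after 2, 6, 12 and 24 h it was 2413 ± 86.6, 2280 ± 34.6, 2142 ± 59.8 and 1525 ± 92.3 bp. For the 209 regions with a TSS, here called promoter regions, the medians were 3051 ± 120.0, 2506 ± 125.0, 2578 ± 17.7, 2468 ± 79.2 and 1962 ± 103.0 bp. Distal medians were lower at each later time, with no overlap between the lists of neighboring times, while promoter medians sat at one level from 2 h to 12 h. The first and last steps involve lengths that the rule used, so only the order from 2 h to 12 h is separate from it. The ratio of the 0 h to the 24 h mean had a median of 1.54 and a maximum of 6.27, and 157 regions reached 2. Without the first 24 h list the rule kept 1699 regions. Close to the threshold of 1.3, the 3 regions just inside were 79 kb from Hnrnpll, 8 kb from Fabp12 and 213 kb from Cntnap2, and the first of them covered 2783 and 3118 bp before induction and 1979 and 2559 bp in the 24 h lists. Just outside, the region 53 kb from Tank covered 1373 and 1693 bp before induction and 1287 and 1072 bp in the 24 h lists.

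**Figure D1:**
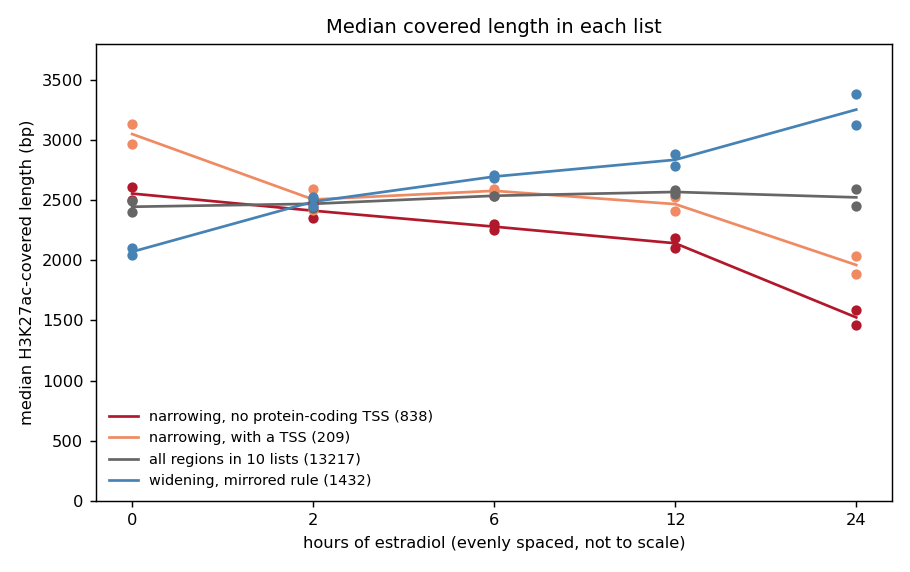
Median H3K27ac-covered length in bp (vertical axis) in each of the 10 lists (points) and their mean (line) against hours of β-estradiol, for narrowing regions without and with a protein-coding TSS, widening regions and all regions in the 10 lists. Distal narrowing regions went from 2556 to 1525 bp, whereas the median over all regions stayed between 2402 and 2593 bp in every list.

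The 10 distal regions with the largest ratio differed in when their length was lower. The largest ratio, 6.27, belonged to a region 4719 bp from the TSS of Leo1, a subunit of the PAF1 elongation complex. This region (chr9:75430639-75436817) covered 6179 and 6141 bp before induction, 1458 and 2679 bp after 2 h, 2750 and 2399 bp after 6 h, 1133 and 2502 bp after 12 h, and 893 and 1073 bp after 24 h. Its 0 h lists stood far above all 8 later lists, which overlapped each other from 2 h to 12 h. By contrast, the intronic region in Rbfox2 (chr15:77219338-77223510), which encodes a splicing regulator, covered 3729 and 3804, 3769 and 3983, 3755 and 3780, 3272 and 3551, and 1068 and 906 bp in the same order of times. Here the length was close to its starting value up to 6 h and most of the difference lay between 12 h and 24 h.

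An intergenic region 69339 bp from the TSS of Kit, the receptor for SCF, was the fifth by ratio (4.03) among distal regions. At chr5:75500668-75505577 it covered 4812 and 3767 bp before induction, 3264 and 3330 bp after 2 h, 3718 and 3655 bp after 6 h, 2258 and 2484 bp after 12 h, and 1063 and 1064 bp after 24 h. The 12 h lists lay below the 2 h lists and the 24 h lists below all others. A second narrowing region nearest to Kit, 34936 bp away at chr5:75534986-75539980, covered 4264 and 4403, 2195 and 4350, 1729 and 4692, 4944 and 4761, and 2166 and 3879 bp. Its replicates were far apart at 2, 6 and 24 h, and its 12 h lists lay above its 2 h lists. It held H3K4me3 peaks of 839 and 619 bp before induction and none in the 12 h and 24 h lists (log2 difference −2.21, limma adjusted p = 0.3). Of the 6 regions with a peak in all 10 lists that were nearest to Kit, 2 narrowed and none widened by the rule.

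The region near Ripply2 (chr9:86988339-86992558) covered 3395 and 3163 bp before induction, 3513 and 3005 bp after 2 h, 1931 and 1711 bp after 6 h, 1883 and 2004 bp after 12 h, and 1063 and 458 bp after 24 h. The intergenic region at chr2:149304545-149307521 covered 2943 and 2281, 2547 and 2588, 1750 and 2038, 1738 and 774, and 632 and 567 bp. In both regions the 6 h and 12 h lists lay below both 2 h lists. The Gsdme region (chr6:50252225-50256322) covered 3966 and 2732 bp before induction, 1519 and 2028 bp after 2 h, 1514 and 1386 bp after 6 h, 1561 and 1443 bp after 12 h, and 907 and 583 bp after 24 h. In the last, the 2 h to 12 h lists formed one plateau. The other 4 lay 4407 bp from 1700015G11Rik, 39159 bp from Nat1 (an arylamine acetyltransferase), 84155 bp from Ugcg (glucosylceramide synthase) and 16505 bp from Sec22c (a vesicle trafficking gene), with ratios of 3.61 to 3.97. Among the 10, both 12 h lists lay below both 2 h lists in 5 regions, above in 1 and overlapped in 4, where 16.9% of all distal regions were below and 24.9% above. No H3K4me3 peak was found in any of the 10 H3K4me3 lists for 6 of them.

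Among promoter regions the largest ratio was at Kif1bp, the kinesin-binding protein gene (chr10:62566238-62571495). It covered 4553 and 4967 bp before induction, 3902 and 4981 bp after 2 h, 2914 and 3053 bp after 6 h, 3465 and 3362 bp after 12 h, and 1603 and 723 bp after 24 h. Amph, the gene of the endocytic protein amphiphysin, had 3219 and 3314, 2771 and 2986, 2985 and 2704, 3255 and 1582, and 885 and 1556 bp, with an H3K4me3 peak in every list. The other regions of the 8 largest held the TSSs of Alad, Olfr1404 (an olfactory receptor), Ltbp4 (a TGF-β-binding matrix protein), Actl9, Plscr2 (a scramblase) and Kbtbd12, with ratios of 2.45 to 2.66 besides Alad. Of the 8, 5 had no H3K4me3 peak in any list, so an annotated start there carried no called promoter mark. Over all 209 promoter regions, 10.0% had no H3K4me3 peak in any list, against 1.04% of the 7782 regions with a TSS.

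The Alad region (chr4:62514540-62525722) stood apart. It covered 9860 and 8786 bp before induction, 10212 and 9154 bp after 2 h, 9062 and 9952 bp after 6 h, 2333 and 2085 bp after 12 h, and 3521 and 2690 bp after 24 h. Each list up to 6 h held 2 peaks here and each list from 12 h on held 1, and a peak of 6726 bp had no counterpart in the 12 h and 24 h lists. H3K4me3 over the same region covered 8820 and 7789 bp before induction and 8606 and 8778 bp after 24 h, and was not called by the test (log2 difference 0.07, adjusted p = 0.89). Its longest H3K27ac peak was 7291 bp in lists that hold none above 9200 bp, and the part of an upper limit on peak length in this result was not tested. A whole 0 h peak was lost in both lists in 6 narrowing regions (0.573%), and in 1 of them the peak was 6 kb or longer. The rule required a peak in every list, which limits this number, and it was not counted over all regions. Gpt/Mfsd3 (chr15:76695406-76703189), with the gene of alanine aminotransferase, had lengths that went down and up again. They were 7509 and 7444 bp before induction, 2959 and 2937 bp after 2 h, 3306 and 3480 bp after 6 h, 7530 and 7430 bp after 12 h, and 3654 and 3482 bp after 24 h, so replicates were close while the 12 h lists returned to the 0 h length.

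**Figure D2:**
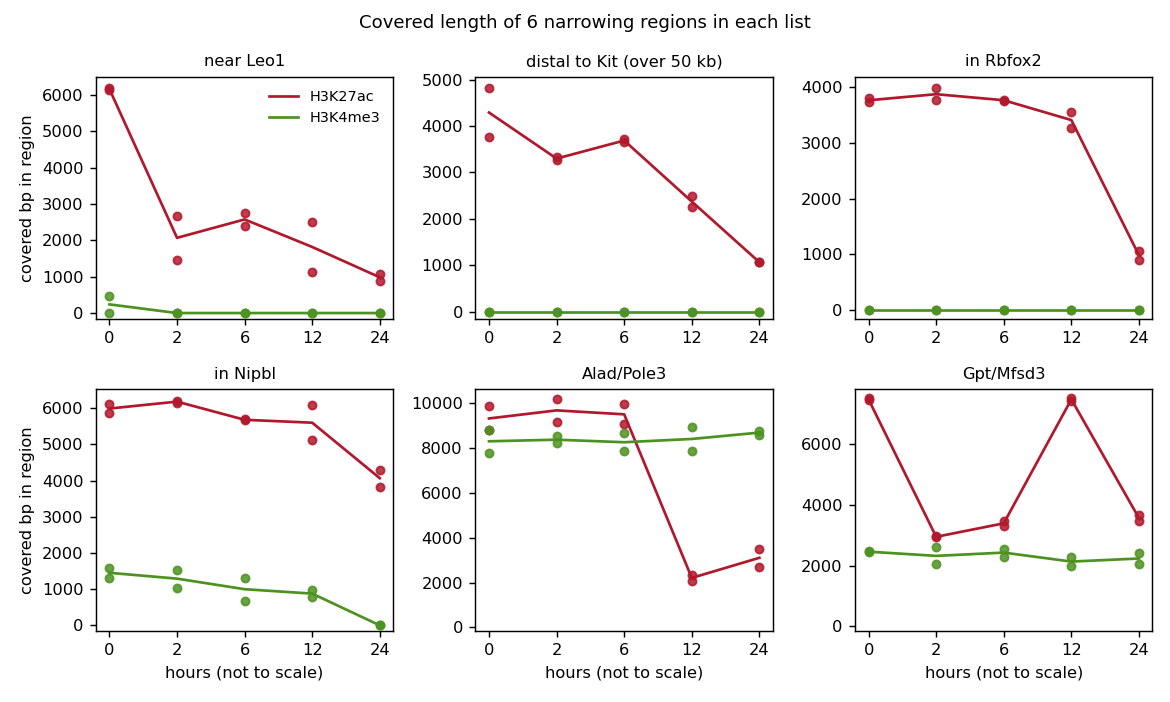
Covered length in bp of H3K27ac (red) and H3K4me3 (green) inside 6 narrowing regions in each list (points, with a line through the mean of the 2 lists at each time) against hours of β-estradiol. Near Leo1 the 0 h lists stand alone, in Rbfox2 the 24 h lists stand alone, and at Alad H3K27ac goes from 8786 bp or more up to 6 h to 3521 bp or less from 12 h on while H3K4me3 stays at 7789 bp or more.

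The lengths at 2 h and 12 h were not used by the rule and allow the same measure to be compared in other lists. Of the 1047 narrowing regions, 341 (32.6%) had both 12 h lists below both 2 h lists, against 12.5% of all 13217 regions and 5.87% of the widening ones. The opposite order was found in 105 (10.0%), against 27.7% of all regions. Among distal regions 305 of 838 (36.4%) were shorter at 12 h, against 16.9% of all 5435, and among promoter regions 36 of 209 (17.2%), against 9.37% of all 7782. A total of 32 promoter regions (15.3%) went the other way, against 29.7%. With each list centred at its median, the shares shorter at 12 h were 42.7% of the narrowing and 20.9% of all regions. With H3K27ac peaks at or above the median score alone, 145 regions met the rule, and 23.4% of them were shorter at 12 h, against 9.5% of all, with a median log2 difference of −0.0045. A single region with 2 lists against 2 cannot pass an exact permutation test, whose smallest two-sided p is 0.333.

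The size of this difference was small for most regions. On the log2(bp + 200) scale the median difference of 12 h minus 2 h was −0.12 for distal and −0.0009 for promoter narrowing regions, against 0.03 and 0.06 over all distal and all promoter regions, and 0.16 for widening regions. It was below 0 for 70.4% of distal and 50.2% of promoter narrowing regions. From 2 h to 6 h the median for distal regions was −0.05 and from 6 h to 12 h −0.07. Across the 838 distal regions, the difference of 12 h minus 2 h and the log2 ratio of 0 h to 24 h had a Spearman rho of −0.255, over regions that share the same lists.

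**Figure D3:**
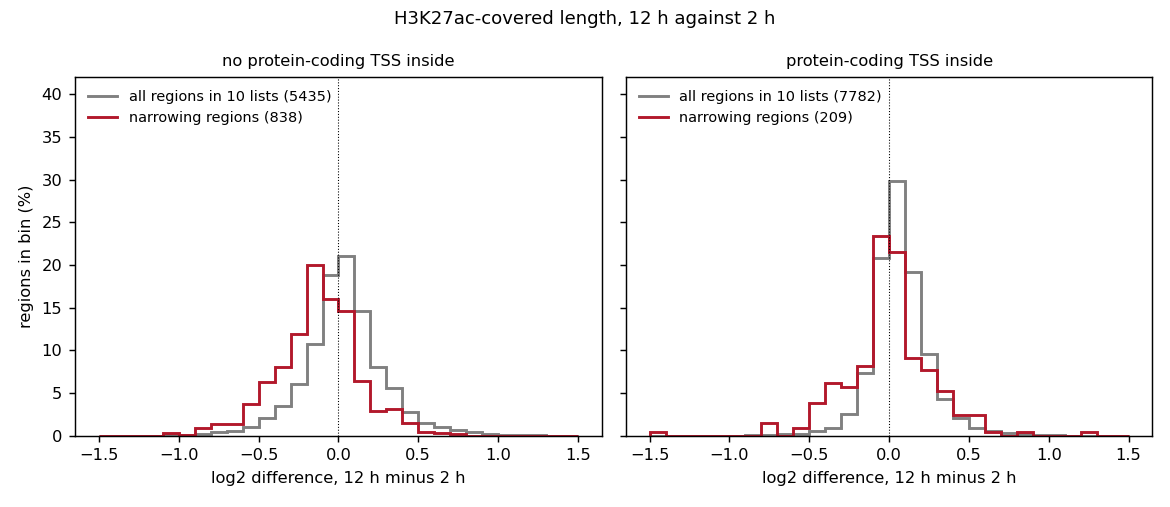
Share of regions in percent (vertical axis) by log2 difference in H3K27ac-covered length between 12 h and 2 h (horizontal axis, bins of 0.1, values beyond 1.5 in the outer bins), without (left) and with (right) a protein-coding TSS. The distal narrowing regions are centred at −0.12 against 0.03 for all distal regions, and the promoter ones at −0.0009 against 0.06.

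Region by region, limma on the 6 lists at 2, 6 and 12 h, with Benjamini-Hochberg adjustment over all 13217 regions, called 3 shorter (0.0227%) and 3 longer (0.0227%) at 12 h than at 2 h. Narrowing regions were 1 of each. The shorter one was Alad (log2 difference −2.04 ± 0.10 SE, adjusted p = 0.012) and the longer one Gpt/Mfsd3 (1.29, adjusted p = 0.019). Both calls were lost whenever 1 of the 6 lists was left out, with adjusted p of 0.059 to 0.25 for Alad, and both regions hold a peak over 6 kb. At an unadjusted p below 0.05, 138 of the 1047 narrowing regions were shorter and 25 longer, against 342 and 836 of all 13217 regions. The named distal regions did not pass the adjusted threshold, for example the region 69339 bp from Kit (−0.45, adjusted p = 0.25) and the one near Ripply2 (−0.69, adjusted p = 0.18).

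Both ends of most regions moved in. From 0 h to 24 h, again as a description, the end that moved in more, an order set by the sorting itself, did so by a median of 714 bp and the other by 225.5 bp, and in 793 regions (75.7%) both moved in by 100 bp or more. At least 80% of the movement fell on one end in 36.4% of the regions, 31.7% of the distal and 55.0% of the promoter ones. Between the 2 h and the 12 h lists, the end that moved in more over the whole course had a median movement of 92.5 bp inward and the other end 45 bp, and 65.0% and 62.3% of these ends went inward. Over both ends of all 13217 regions the median was −35 bp, that is outward, and 40.8% went inward. For distal regions the medians were 123.5 and 63 bp, for promoter regions 6.5 and −13.5 bp. Among 182 promoter regions with the TSS of 1 gene, the gene side moved in more in 101 and the upstream side in 81.

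**Figure D4:**
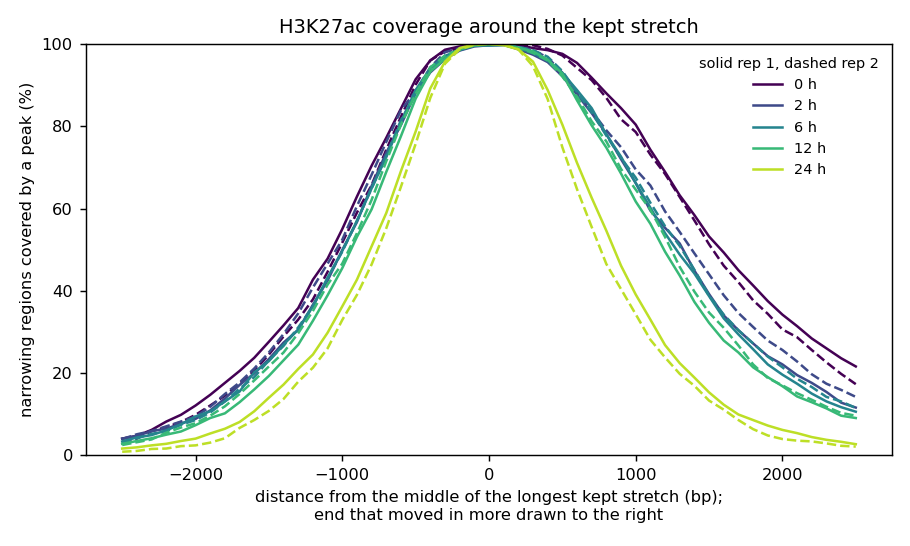
Share of narrowing regions in percent (vertical axis) under an H3K27ac peak at each distance in bp from the middle of the longest kept stretch (horizontal axis), with the end that moved in more drawn to the right, for each of the 10 lists (color, time; solid and dashed, replicates 1 and 2), over 1038 regions with a kept stretch. At 1000 bp to the right 80.4% and 78.6% were covered before induction, 66.2% and 69.5% after 2 h, 61.7% and 64.6% after 12 h, and 39.1% and 34.3% after 24 h.

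H3K4me3, measured in other libraries, was called in fewer of the distal narrowing regions at 24 h than at 0 h. Of the 838 distal regions, 322 (38.4%) and 354 (42.2%) had an H3K4me3 peak in the 0 h lists, and after 2, 6 and 12 h the numbers were 315 and 259, 261 and 243, and 236 and 222. The 24 h lists held one in 194 (23.2%) and 202 (24.1%). Both lists at 12 h and at 24 h were below all lists at 0 h and 2 h. Over all 5435 distal regions the share went from 49.8% and 52.4% to 41.0% and 42.4%, so it was lower over all distal regions too. For promoter regions 179 and 182 of 209 had a peak at 0 h and 173 in each list at 24 h. A peak was present in both 0 h lists and neither 24 h list in 84 narrowing regions (8.02%), 80 of them distal, against 2.29% of all regions and 1.33% of the widening ones. Among distal regions the shares were 9.55% of the narrowing and 5.21% of all. The opposite was seen in 1 narrowing region, against 0.151% of all. With H3K4me3 peaks at or above the median score alone, the share was 0.86% of narrowing and 1.82% of all regions, which is the opposite order.

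**Figure D5:**
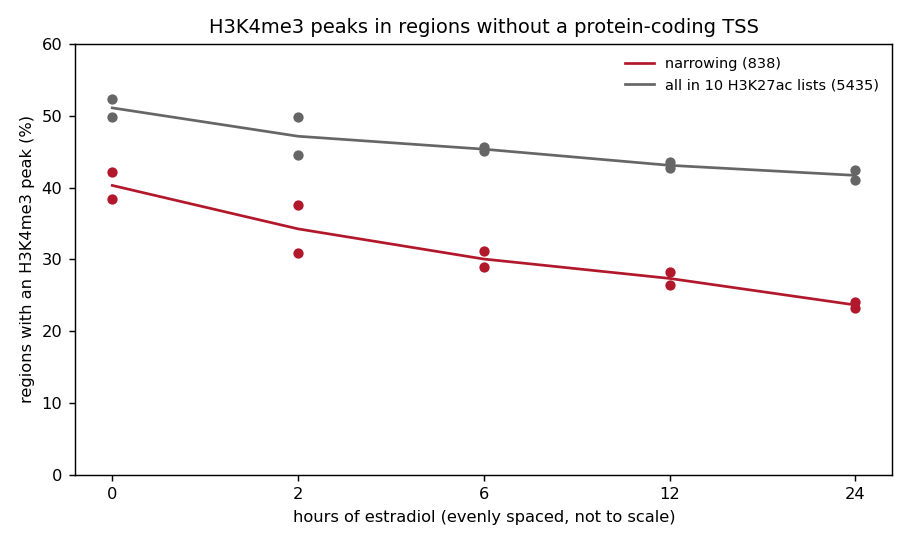
Share of regions without a protein-coding TSS that held an H3K4me3 peak, in percent (vertical axis), in each of the 10 H3K4me3 lists (points, with a line through their mean) against hours of β-estradiol. The narrowing regions go from 38.4% and 42.2% before induction to 23.2% and 24.1% after 24 h, and all distal regions from 49.8% and 52.4% to 41.0% and 42.4%.

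The test of H3K4me3 length at 24 h against 0 h took the 10612 regions with a peak in at least 2 of the 10 H3K4me3 lists, among them 527 narrowing regions. The other 520 were not tested, 442 of them without an H3K4me3 peak in any list, and 39 of those tested had peaks in the 0 h and 2 h lists alone and so had to be lower at 24 h. Limma with Benjamini-Hochberg adjustment over the 10612 called 29 narrowing regions (5.5%) lower and none higher, against 0.848% of all tested regions called lower and 0.302% higher. At an unadjusted p below 0.05, 162 of the 527 narrowing regions were lower and 1 higher, against 871 and 370 of all 10612 tested regions. Distal regions made up 27 of the 29, which is 7.83% of the 345 distal narrowing regions tested, against 2.56% of all 2927 distal regions tested. In 7 of the 29 the H3K4me3 peaks were found in the 0 h and 2 h lists alone, so their direction was fixed by the filter, and 22 of the 29 had no peak left in either 24 h list. Without the first 0 h list the 29 became 10, without the second 11, with high-scoring H3K4me3 peaks alone 3, and in a fit without the 2, 6 and 12 h lists 56.

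Of the 5 called regions with the largest differences, 3 had H3K4me3 in every list up to 12 h. The region 10392 bp from Homer2, a synaptic scaffold gene, at chr7:81717336-81721049 held H3K4me3 peaks of 1870 and 1790 bp before induction, 2041 and 1692 bp after 2 h, 1592 and 873 bp after 6 h, 848 and 813 bp after 12 h, and none at 24 h (log2 difference −3.34 ± 0.23 SE, adjusted p = 0.0014). The intergenic region at chr6:68250145-68252402 had 1857 and 1681, 1568 and 1353, 868 and 1008, 882 and 976, and no bases in turn (−3.30, adjusted p = 0.00019). In an intron of Nipbl, the gene of the cohesin loader, 1316 and 1588 bp before induction became 982 and 773 bp after 12 h and none at 24 h (−3.04, adjusted p = 0.0055). None of the 3 had a peak at 24 h. The call in Nipbl was lost without the second 0 h list (limma adjusted p = 0.053).

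By contrast, an intronic region of Rad51b, a DNA repair gene, at chr12:79350448-79356752 held 1738 and 1868 bp before induction, 1881 and 857 bp after 2 h and none from 6 h on. The region at chr5:91719662-91726369 was alike, with 1805 and 1599 bp, then 1013 and 1100 bp, then none. Both belong to the 7 regions whose direction the filter fixed, so their values are a description. H3K27ac was present in every list in these regions because the rule required it. In the Rad51b region it covered 6305 and 5316 bp before induction and 4288 and 3594 bp after 24 h.

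The remaining 24 calls ranged from −2.85 to −0.47. They lay near or in Cd55, a complement regulator carried by blood cells, Mbnl1, a splicing regulator, and Sox6, a transcription factor of erythroid maturation, among others. The smallest was the promoter of Acsl3, a fatty acid-CoA ligase (−0.47, adjusted p = 0.019). Near Cish, a target of STAT5 that dampens cytokine signaling, H3K4me3 was 1526 and 1719 bp before induction and 866 and 915 bp after 24 h (−0.74, adjusted p = 0.032), and this call was lost in 8 of the 10 fits with 1 list left out.

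A protein-coding TSS lay inside 209 of the 1047 (95% exact binomial interval 17.6% to 22.5%, which covers counting error only), against 58.9% of all 13217 regions and 46.9% of the widening ones. The middle was intergenic in 49.3%, intronic in 40.7% and exonic in 10.0%, against 28.7%, 46.2% and 25.1% over all regions. Distal narrowing regions were also farther out: 32.9% of them had no TSS within 50 kb, against 24.7% of all distal regions, and the median distances were 26410 and 20710 bp. The start of a long noncoding RNA lay inside 4.78%, against 9.28%. The whole span was similar, with medians of 3131 and 3162 bp. The best peak of a region had a median score percentile in its list of 44.8 and 43.8 before induction and 35.0 and 32.0 after 24 h. Over all regions the 0 h percentiles were 62.7 and 62.3. For distal regions alone the 0 h percentiles were 43.5 and 42.8, close to the 43.6 and 43.0 over all distal regions. Promoter regions scored lower from the start, with 50.7 and 49.8 at 0 h against 75.8 and 75.6 over all promoter regions.

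CTCF peaks overlapped 265 narrowing regions (25.3%) at 0 h and 292 (27.9%) at 24 h, against 31.4% and 39.0% of all regions. In distal regions the shares were 22.7% and 24.2%, against 26.6% and 31.4%. With 1 list at each time there is no test, and the 24 h list held more peaks in all. By base, CTCF peak middles at 0 h were found at 52.1 per Mb of lost and 82.3 per Mb of kept bases in distal narrowing regions, against 44.7 and 98.2 per Mb over all distal regions. Of the 35 middles in lost bases over all distal regions, 29 lay in narrowing regions.

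The lost bases of the narrowing regions summed to 0.713 Mb and the kept bases to 1.63 Mb. In distal regions the GATA words were found at 2.10 per kb of lost and 2.66 per kb of kept bases, a ratio of 0.791 (95% exact binomial interval 0.74 to 0.846, which covers counting error only). Over all 5435 distal regions the densities were 1.98 and 2.38 per kb, with a ratio of 0.832 (0.79 to 0.876). The comparison regions include the narrowing ones, which held 0.556 of the 0.783 Mb of lost bases in all distal regions. In promoter regions they held 0.157 of 0.379 Mb. Lost bases of both groups are thus largely the same, and overlapping intervals of the 2 ratios cannot show that the groups are alike. The motif was sparser in what was lost than in what was kept, both here and over all distal regions. Most regions lost length at their ends, so this sets ends against middles, and the part of position was not tested. Bases under a peak in both 24 h lists and neither 0 h list held 2.40 per kb over all distal regions. With the core GATA alone the ratio was 0.924 (0.885 to 0.964) here and 0.971 (0.94 to 1.0) over all distal regions. In promoter regions the ratio was 1.14 (0.981 to 1.32), against 1.08 (0.997 to 1.18) over all promoter regions. Among the other words in distal regions, searched on both strands and free to overlap, TGANTCA, read by AP-1 factors, had a ratio of 0.755 (0.631 to 0.901), CANNTG, the E-box, 0.978 (0.937 to 1.02), TGTGGT, a RUNX word, 1.02 (0.92 to 1.13), CACCC, read by KLF factors, 0.957 (0.896 to 1.02), and CCGGAAG, an ETS word, 0.623 (0.375 to 0.999). Over all distal regions the same words had ratios of 0.829 (0.721 to 0.948), 0.992 (0.962 to 1.02), 1.06 (0.983 to 1.14), 0.907 (0.865 to 0.951) and 0.551 (0.372 to 0.79). These intervals overlap those of the narrowing regions in each case, again over lost bases that are mostly the same. Lost bases had fewer CpGs than kept bases, 9.94 against 12.4 per kb in distal and 15.7 against 38.2 per kb in promoter regions, as they did over all distal (10.3 against 15.2) and all promoter regions (14.2 against 40.6). H3K4me3 at 0 h covered 2.60% and 3.10% of the distal lost bases in the 2 lists but 25.1% and 28.2% of the kept ones, and over all distal regions 3.94% and 4.45% of the lost and 31.7% and 34.1% of the kept ones.

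Among the gene lists, a region was assigned to a gene when it held its TSS or had it as the nearest TSS within 50 kb, and 16 narrowing regions fell to a listed gene. Narrowing depended on position: 838 of all 5435 distal regions narrowed, against 209 of all 7782 promoter regions. The lists below were not split in this way, so their shares also reflect how many distal regions they hold. The cytokine receptor and RAS-MAPK list had 5 narrowing regions of 29 (17.2%, against 7.92% of all regions). They comprised 2 regions near Jak2, the kinase of the erythropoietin receptor, and 1 each at Mcl1 (a survival protein), Etv5 (an ETS factor) and Cish. Of the 5, only the Etv5 region held a TSS. The region 21998 bp from Jak2 covered 3893 and 3666 bp before induction, 3499 and 3736 bp after 2 h, 3511 and 3519 bp after 6 h, 3032 and 3226 bp after 12 h, and 2413 and 1353 bp after 24 h, so that its 12 h lists lay below its 2 h lists. The one 11744 bp away covered 4457 and 4180 bp before induction and 2546 and 2420 bp after 24 h, with overlapping lists between 2 h and 12 h. Near Mcl1 the lengths were 3980 and 4107, 3915 and 2587, 2311 and 1845, 2181 and 1880, and 3507 and 1814 bp, and here 1 of the 24 h lists lay above both 12 h lists.

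Progenitor and stem cell regulators had 4 narrowing regions of 36 (11.1%), near Erg and Ikzf1 (transcription factors of blood progenitors), Cd44 (an adhesion receptor) and Kit, with ratios of 1.33 to 1.44. The Ikzf1 region covered 4638 and 3427 bp before induction and 3012 and 2873 bp after 24 h, and its 12 h lists lay above its 2 h lists. Erythroid genes that GATA1 activates had 2 narrowing regions of 38 (5.26%), at Alad and 10338 bp from Tal1, a partner of GATA1. By the mirrored rule 19 of the 38 widened. Over all 13217 regions, 1047 narrowed and 1432 widened. The Tal1 region at chr4:115069846-115077175 covered 7323 and 7088 bp before induction, 4499 and 4617 bp after 2 h, 6090 and 4505 bp after 6 h, 6924 and 5200 bp after 12 h, and 4139 and 2699 bp after 24 h. It was longer at 12 h than at 2 h, so its length did not go down steadily.

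Mast cell genes had 2 narrowing regions of 9, at Gpr65 (a proton-sensing receptor) and Alox5 (5-lipoxygenase). In the Gpr65 region H3K27ac covered 5616 and 4948 bp before induction, 4811 and 4793 bp after 12 h and 4079 and 3339 bp after 24 h, and H3K4me3 3976 and 3028 bp before induction, 1487 and 2239 bp after 12 h, and 928 bp and none at 24 h (−2.95, adjusted p = 0.15). Both marks were lowest at 24 h there, while the H3K4me3 difference did not pass the test. Immediate early genes had 2 of 28, including a region 11376 bp from Fos, and histone genes 1 of 18, near Hist1h4m. None of the 2 myeloid, 9 megakaryocyte, 25 cell cycle and MYC target, and 73 ribosomal protein regions narrowed. Over all regions, 209 of 7782 with a TSS and 838 of 5435 without one narrowed. Counts of none among so few regions cannot show that these genes were spared. No test was run on these counts.

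Narrowing regions were scattered over 898 nearest genes, of which 123 were nearest to 2 or more. The 3 genes with 4 or more, picked out after the values were seen, were Cited2, a CBP/p300-binding regulator of blood stem cells, with 6 of its 11 regions, Itga4, an integrin subunit of erythroid progenitors, with 4 of 5, and Nova1, with 4 of 11. All of these lay over 50 kb from the TSS. Over all regions, 276 of the 1341 with no protein-coding TSS within 50 kb narrowed, and no test was run on the counts by gene. The 4 regions by Itga4 spanned chr2:79077696-79174204, 81296 to 174878 bp from its TSS, with ratios of 1.36 to 2.25. The farthest of them covered 2141 and 2193 bp before induction, 2520 and 2684 bp after 2 h, 2149 and 2155 bp after 6 h, 1560 and 2181 bp after 12 h, and 1113 and 815 bp after 24 h. In 2 of the 4 by Itga4 and none of the 6 by Cited2 both 12 h lists lay below both 2 h lists, and 3 of the 4 by Nova1 did so, against 16.9% of all distal regions. One of the Cited2 regions, at chr10:17521553-17524124, also passed the H3K4me3 test (−2.24, adjusted p = 0.011), with 652 and 847 bp before induction and none at 24 h. This call was lost without the first or the second 0 h list (limma adjusted p = 0.095 and 0.12) and without the first 24 h list (0.054).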

How the data were processed

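ChIP-seq peak lists of G1E-ER4 cells were used: 10 for H3K27ac, 10 for H3K4me3 and 2 for CTCF. The authors aligned reads to mm10 with Bowtie2, kept uniquely mapped reads and called histone peaks with MACS; the version, control and threshold are not given in the sources used here, nor is the caller for CTCF. The deposited files hold positions and a peak score per the files, each list called on 1 sample, with no counts, so depth is unknown. The score was used only for percentiles and for one alternative.

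Peaks were merged and lengths compared as described in the report, with GENCODE M21 for genes and the GRCm38.p6 sequence. Lengths were tested on log2(bp + 200) with limma 3.58.1 (R 4.3.3; a mean for each time, trended empirical Bayes, Benjamini-Hochberg, adjusted p below 0.05), without a replicate block. In a test on simulated data, 64.0% of 200 regions changed by 1 log2 unit among 13217 were recovered for H3K27ac at 12 h against 2 h, and 80.5% among 10612 for H3K4me3. The median differences of the narrowing regions were smaller, −0.09 and −0.28, and recovery at those sizes was not tested.

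Named regions were the 10 distal and 8 promoter regions of largest ratio, up to 15 belonging to the gene lists, up to 5 per direction passing each test, and those nearest the threshold. The regions, gene lists and tests were chosen with earlier results of these data known. Symbols of ribosomal proteins were matched by pattern, leaving out kinases such as Rps6ka5. One of the named regions' sequences and one called region are not reported here.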

Additional observations from a re-analysis of the deposited data

How the results depend on the processing

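The number of narrowing regions was 583 at a ratio of 1.5 and 145 with H3K27ac peaks at or above the median score alone, and it stayed within 1.5 times 1047 under the other settings; with 1 list left out it ran from 1051 to 1699, the latter without the first 24 h list. Narrowing regions called shorter at 12 h than at 2 h by limma numbered 0 with a slope over 2, 6 and 12 h, 0 with high-scoring peaks, 0 with the replicate number as a block, 0 without regions with a peak of 6 kb or longer (chosen after seeing the data), 2 with merging within 500 bp, 4 in a fit to all 10 lists, and 0 to 0 with any list left out. The median difference of 12 h minus 2 h over the 1047 regions, −0.09 as tested, was −0.0703 with a pseudocount of 1000 bp, −0.15 with centred lists, −0.0045 with high-scoring peaks, and −0.123 to −0.0614 with 1 list left out. The share with both 12 h lists below both 2 h lists (alternatives chosen after seeing the data) was 42.7% with centred lists, 23.4% with high-scoring peaks (9.5% of all regions), and 44.2% to 54.8% with 1 list left out (23.5% to 28.5% of all regions).

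Narrowing regions called lower for H3K4me3 numbered 3 with high-scoring H3K4me3 peaks, 56 when the fit used the 0 h and 24 h lists alone, and 10 to 38 with 1 list left out. The median difference over the 527 tested, −0.28, was −0.31 and −0.17 with pseudocounts of 50 and 1000 bp, −0.20 with a peak required in 5 lists, −0.0749 with high-scoring peaks, and −0.29 to −0.19 with 1 list left out. The share with an H3K4me3 peak at 0 h only was 0.86% with high-scoring peaks and 10.0% to 13.6% with 1 list left out (3.02% to 4.03% of all regions). The share with a TSS was 25.3% and 15.1% at ratios of 1.2 and 1.5, and that with a CTCF peak at 24 h was 24.9% with the peak middle inside. The ratio of GATA density in lost to kept bases was 0.843 over all narrowing regions, 0.791 in distal ones, and 0.963 with the core word GATA alone.

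Same-numbered lists did not deviate together in covered length (correlations of −0.0322 to 0.0161 for H3K27ac and −0.082 to 0.0421 for H3K4me3). This cannot show whether lists with the same number shared a culture. With the replicate block, 21 narrowing regions were called lower for H3K4me3, and Alad (adjusted p = 0.074), Gpt/Mfsd3 (0.1) and Cish (0.077) lost their calls. The causes of these shifts were not tested. With high-scoring H3K4me3 peaks the share with a peak at 0 h only turned from above that of all regions (8.02% against 2.29%) to below it (0.86% against 1.82%). Unknown depth limits every statement on a missing peak.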
